A study of Mus musculus with 12 samples.

Results

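Lenses homozygous for a cataract mutation of the cation channel gene *Trpm3* were compared with lenses heterozygous for it, to find the effect of the second mutant allele on the lens transcriptome. The members are 6 of the 12 RNA-seq libraries of the series, namely 3 from homozygous *Trpm3*-M/M lenses and 3 from heterozygous *Trpm3*-I/M lenses, chosen by genotype alone. The other 6 libraries, 3 from wild-type and 3 from *Trpm3*-KO lenses, entered the model for its estimate of spread, and the wild-type libraries also gave the level with no mutant allele. The mutation, I65M, replaces an isoleucine near the start of the protein with methionine. It was introduced by CRISPR/Cas9 into the mouse germ line, so every cell carried it. The *Trpm3*-KO allele came from homologous recombination. All mice were kept on the C57BL6/J background, and lenses were taken at postnatal day 7. Each library pooled 4 male and 4 female lenses, so the p-values measure the spread between pools and not between animals.

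TRPM3 is a cation channel of the melastatin family that admits calcium and is opened by heat and by the steroid pregnenolone sulfate. The lens consists of an anterior epithelium and of fiber cells that differentiate from it, fill with crystallins and discard their organelles. The whole is enclosed in a collagenous capsule and, in the embryo, in a transient capillary net that regresses after birth.

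The edited codon is shown because its dose defines the comparison. In 7 of the 18 GENCODE *Trpm3* transcripts with an annotated coding start, codon 65 is the isoleucine codon at chr19:22697437-22697439 (GRCm38, forward strand) in exon 2. In 5 transcripts that start further downstream, position 65 is another isoleucine codon. The reference coding stretch follows, with that first codon in capitals.
Trpm3 codon 65: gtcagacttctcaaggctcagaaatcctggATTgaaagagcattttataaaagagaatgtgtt

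*Trpm3* itself was read at 370.2, 413 and 376 CPM (read counts per gene scaled to library size and by the trimmed mean of M values, TMM) in heterozygous lenses and at 473, 469 and 484 CPM in homozygous lenses. The 3 homozygous libraries all lay above the 3 heterozygous ones, and the log2 fold change was 0.30 ± 0.06 (SE, edgeR adjusted p = 0.000926). The wild-type mean was 269 ± 17.3 CPM (SD, n = 3) and the *Trpm3*-KO mean 95.3 ± 5.02 CPM. Counts per gene do not separate mutant from normal transcripts.

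The heterozygous libraries held 68589080 to 82090262 counted reads and the homozygous ones 65454183 to 73875066. The defining fiber markers were abundant in every library, with *Cryaa* the highest, and the epithelial markers *Foxe3* and *Pax6* were read in both genotypes, so the tissue matched its label. The third *Trpm3*-I/M library stood apart from its description, because *Xist*, the RNA of the inactive X chromosome, was read at 0.0721 CPM against 74 and 121 CPM in the other heterozygous libraries. Its summed level of 4 Y-linked genes was 69.1 CPM against 40.8 and 21.6 CPM. Without that library, on the same tested genes, 327 genes were called higher and 83 lower, close to the counts from all libraries given next.

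The second mutant allele moved many genes up and fewer down (the plot of fold change against abundance). The 8984 genes tested had at least 5 CPM in at least 3 libraries, with CPM for this limit taken before the TMM factors. The factors were 1.22, 1.25 and 1.27 in the homozygous libraries and 1.01, 1 and 1.01 in the heterozygous ones. A homozygous library therefore passed the limit at a lower scaled CPM. Of these genes 330 rose at least 2-fold in *Trpm3*-M/M lenses with an adjusted p of at most 0.05, which is 3.67%. In the other direction 92 genes fell, or 1.02%. The test was the quasi-likelihood test of edgeR, with p-values adjusted over all tested genes by the Benjamini-Hochberg method, and "rose", "fell" and "called" mean both limits in what follows. Scaled by library size alone, which moves the median gene by 0.308 on the log2 scale, 533 genes rose and 31 fell, so 94.5% of calls were upward in place of 78.2%. When 1 homozygous library was left out, between 106 and 131 genes rose, since fewer genes then reached the CPM limit, and between 320 and 346 rose among the same tested genes. At the adjusted p alone, 2300 genes (25.6%) were higher and 2308 (25.7%) lower, so about equal numbers of genes shifted each way and the large shifts were mostly upward. All 3 homozygous libraries lay above all 3 heterozygous ones for 2727 genes (30.4%) and below them for 2710 (30.2%). These included all 330 genes called higher and all 92 called lower. A statement below that a called gene did not overlap therefore adds nothing to its call.

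**Figure D1:**
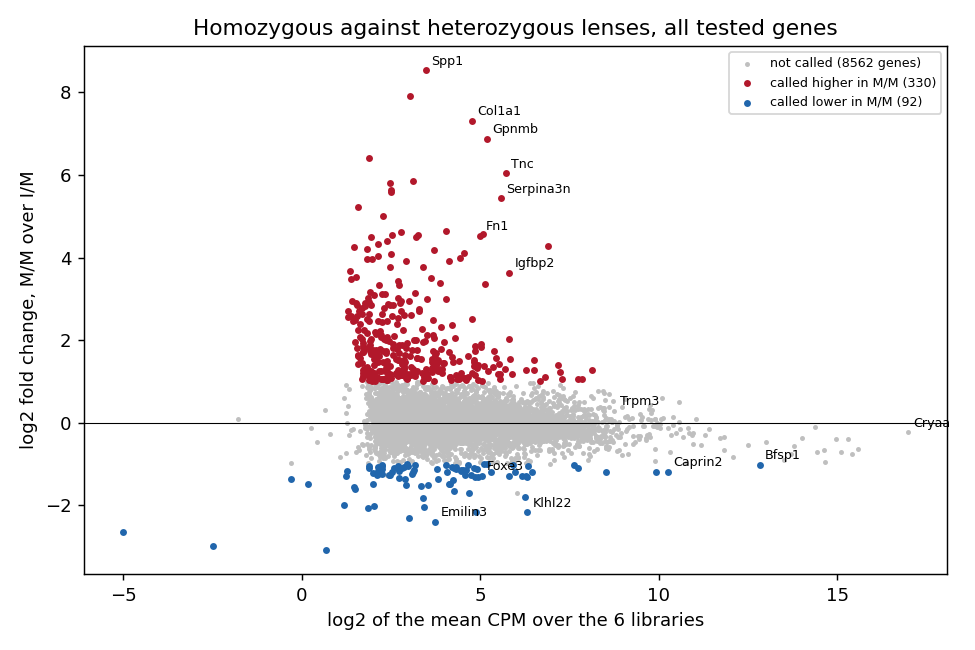
Each point is 1 of the 8984 tested genes, with the log2 of its mean CPM over the 6 libraries on the horizontal axis and its log2 fold change, *Trpm3*-M/M over *Trpm3*-I/M, on the vertical axis. The 330 genes called higher reach a log2 fold change of 8.54 (*Spp1*) and sit mostly at low abundance, whereas the 92 called lower include the abundant fiber genes *Bfsp1* and *Caprin2*.

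The genes that rose were scarce in heterozygous lenses. Their median level was 2.7 CPM in heterozygous lenses and 10.5 CPM in homozygous lenses, and 233 of the 330 reached the abundance limit only with the help of the homozygous libraries. Of those, 214 had no other library at 5 CPM and so had to be higher in *Trpm3*-M/M to be tested at all. Among the 8213 genes that reached the limit without the homozygous libraries, 97 rose, or 1.18%. Counts for the main gene lists are therefore given below both over all tested members and over those that reached the limit without the homozygous libraries, and only the second kind are to be read against 1.18%. The genes that fell had a median of 18.1 CPM in heterozygous lenses and 6.03 CPM in homozygous lenses. In size, 121 of the rises and 10 of the falls were at least 4-fold. RNA was taken from whole lenses, so more cells of a type and more RNA per cell cannot be told apart.

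Many extracellular matrix genes rose. Of 24 tested matricellular and matrix glycoprotein genes 11 rose and none fell at 2-fold, while 2 were lower at the adjusted p alone. However, 12 of the 24 reached the limit only with the homozygous libraries, and of the remaining 12 genes 1 rose, with a median log2 fold change of 0.34. Of 30 collagen, laminin and basement membrane genes 13 rose and none fell, while 6 were lower at the adjusted p alone. Of the 23 that did not need the homozygous libraries 6 rose, with a median of 0.20. The median over all tested genes was 0. *Spp1*, which encodes the secreted phosphoprotein osteopontin, was read at 0.121, 0 and 0.0577 CPM in heterozygous lenses and at 13.5, 30.5 and 22.5 CPM in homozygous lenses. It was the largest rise of all, near absent in every heterozygous library and plainly present in every homozygous one (log2 fold change 8.54 ± 0.45, edgeR adjusted p = 1.26e-08).

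*Col1a1*, the main chain of fibrillar type I collagen, was read at 0.404, 0.377 and 0.231 CPM in heterozygous lenses and at 35, 80.2 and 47.7 CPM in homozygous lenses, a log2 fold change of 7.31 ± 0.35. *Tnc*, which encodes the adhesion-modulating glycoprotein tenascin C, was read at 2.79, 1.09 and 0.807 CPM against 76.4, 119 and 115 CPM, a log2 fold change of 6.05 ± 0.30. The homozygous libraries exceeded the heterozygous ones for both genes without overlap, and the second homozygous library was the highest for both. *Fn1*, encoding fibronectin, was read at 2.48, 2.66 and 2.83 CPM against 44.6, 73.9 and 65 CPM, a log2 fold change of 4.53 ± 0.18. *Postn*, encoding periostin, was read at 2.27, 2.72 and 3.14 CPM against 52.2, 80.9 and 60.1 CPM, a log2 fold change of 4.57 ± 0.17.

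The collagens did not all move alike. The fibrillar chains *Col5a1*, *Col5a2* and *Col5a3*, the fibril-associated *Col12a1* and the basement membrane proteoglycan collagen *Col18a1* rose, the last from 5.65, 8.71 and 9.9 CPM to 44.4, 39.9 and 53.8 CPM. The collagen IV chains that build the lens capsule, by contrast, were abundant and changed little. *Col4a1* had means of 2746 CPM in heterozygous lenses and 2226 CPM in homozygous lenses, a log2 fold change of -0.30 ± 0.06, and *Col4a6* had means of 171 and 215 CPM, a log2 fold change of 0.32 ± 0.06. Among 18 tested proteases and inhibitors 6 rose and 1 fell, and of the 13 that did not need the homozygous libraries 1 rose and 1 fell. The rises included the gelatinase *Mmp2* (log2 fold change 4.10), the protease inhibitors *Serpine2* (3.77) and *Timp1* (2.48) and the plasminogen activator *Plat* (2.95).

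**Figure D2:**
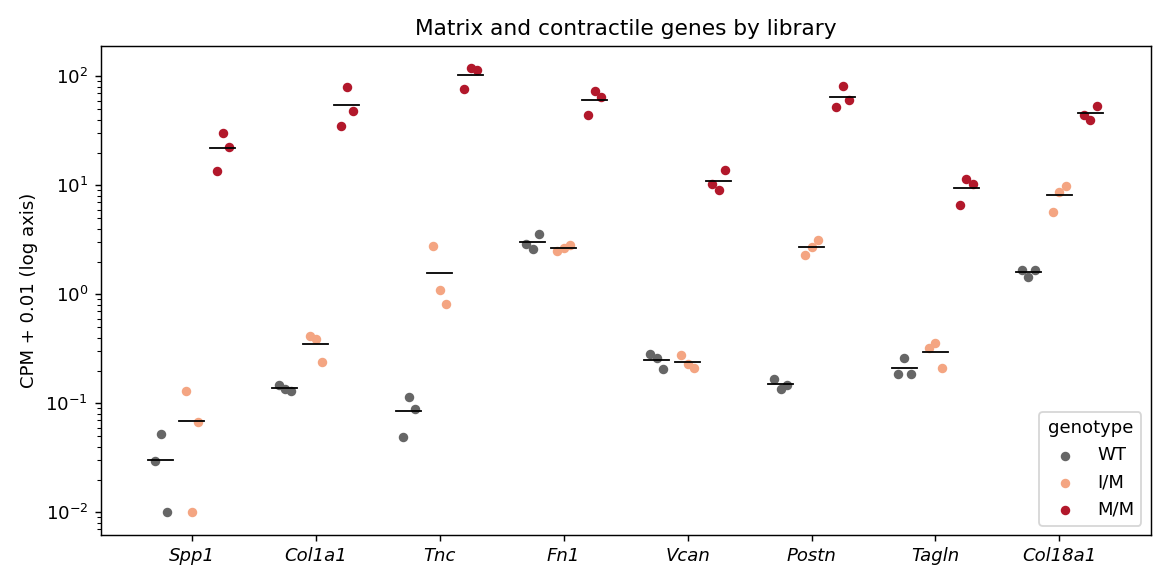
CPM plus 0.01 on a log axis for 8 matrix and contractile genes in wild-type, heterozygous and homozygous lenses, where each point is a library and each bar the mean of 3. The 3 *Trpm3*-M/M points lie above every *Trpm3*-I/M point for each gene.

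Contractile and adhesion genes were also among the rises. Of 17 tested contractile and mesenchymal genes 7 rose and none fell, and of the 14 that reached the limit without the homozygous libraries 4 rose (median log2 fold change 0.61). *Tagln*, which encodes the smooth muscle actin-binding protein transgelin, was read at 0.31, 0.352 and 0.202 CPM in heterozygous lenses and at 6.6, 11.4 and 10.3 CPM in homozygous lenses (log2 fold change 5.01 ± 0.26). *Acta2*, smooth muscle actin, rose from a mean of 90.5 to one of 212 CPM, and *Cnn2* and *Twist2* rose by 3.18 and 3.68 on the log2 scale. *Zeb1* and *Zeb2*, repressors of epithelial genes, had log2 fold changes of 0.14 and 0.12 with adjusted p-values above the limit. Among 15 tested integrins and cadherins 5 rose and none fell, and of the 11 that reached the limit without the homozygous libraries 1 rose. The rises included the integrins *Itga9* (1.91) and *Itga5* (1.53) and the endothelial cadherin *Cdh5* (1.78). Of 31 tested TGF-beta and BMP pathway genes none was called, and *Tgfb2* had a log2 fold change of 0.59 ± 0.06.

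Some markers of cells outside the lens moved with these genes. The summed level of 11 pericyte and smooth muscle markers, a list that shares *Acta2* and *Tagln* with the contractile genes, was 117 to 141 CPM in heterozygous lenses and 249 to 339 CPM in homozygous lenses. Without *Acta2* it was 34.9 to 44.9 CPM against 79.3 to 91.2 CPM. The sum of 14 fibroblast and mesenchyme markers, which include *Col1a1*, was 70.2 to 75.7 CPM against 96 to 148 CPM, with 7 of the 14 above in every homozygous library. The difference in the sum came from *Col1a1*. Without it, a choice made after seeing the data, the sum was 69.9 to 75.3 CPM in heterozygous lenses. In homozygous lenses that sum was lower, at 61 to 67.5 CPM. The most abundant marker of the list in heterozygous lenses, the growth factor receptor *Pdgfra*, had means of 65.9 and 39 CPM (edgeR adjusted p = 1.67e-07). It was the only marker of the list below in every homozygous library. *Col1a2* (means of 3.26 and 12.3 CPM) and *Meox2* (0.328 and 7.39 CPM), both scarce in heterozygous lenses, rose. The 7 markers not shared with other lists, *Meox2* among them, summed to 1.97 to 2.8 CPM against 8.91 to 10.4 CPM. *Dpt* and *Tcf21* were at 0 in all 6 libraries and *Lum* was near 0. The part of such cells in the matrix result was not tested.

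Immediate-early genes, which are switched on within minutes of a stimulus and encode mostly transcription factors, were a further list. Of 14 tested 7 rose, or 50%, and none fell. However, 8 of the 14 reached the limit only with the homozygous libraries, the 7 called genes among them, and of the other 6 genes none was called in edgeR's test while 3 were higher at the adjusted p alone. *Egr1* was read at 1.48, 0.911 and 1.95 CPM in heterozygous lenses and at 13.2, 25.7 and 19.8 CPM in homozygous lenses (log2 fold change 3.78 ± 0.33, edgeR adjusted p = 1.1e-06). *Junb* was read at 1.2, 1.06 and 1.38 CPM against 7.26, 14.3 and 14.7 CPM (3.32 ± 0.41). Neither gene overlapped between genotypes, and the first homozygous library was the lowest for both. *Nr4a1* (2.46), *Klf4* (2.12), *Fosl2* (1.81), *Arc* (1.53) and *Klf2* (1.02) also rose, whereas *Jun* and *Jund* had log2 fold changes of 0.46 and 0.32.

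The promoters of the called immediate-early genes are shown because the called genes include several transcription factors. Of the 7 called genes 5 have an entry in the RefSeq promoter table used here (GRCm38.p6). The 250 bases before the start were searched on both strands for the EGR site GCGGGGGCG, the AP-1 site TGACTCA, the CRE site TGACGTCA and the CArG box. The EGR site was found in 4 of the 5 and in 1 of 6 tested genes of the list that were not called. Of all 32851 promoters 2.57% held it. All 7 called genes had reached the abundance limit only with the homozygous libraries. The site holds only G and C, and the background promoters were not matched for base composition. Whether the site bears on the rises was not tested. None of the 5 held any of the other 3 motifs, which occur in 4.46% (AP-1), 1.55% (CRE) and 1.47% (CArG) of all promoters. The 4 promoters with a match follow, with the EGR site in capitals on whichever strand it lies.
Nr4a1 promoter, chr15:101266596-101266845, forward strand: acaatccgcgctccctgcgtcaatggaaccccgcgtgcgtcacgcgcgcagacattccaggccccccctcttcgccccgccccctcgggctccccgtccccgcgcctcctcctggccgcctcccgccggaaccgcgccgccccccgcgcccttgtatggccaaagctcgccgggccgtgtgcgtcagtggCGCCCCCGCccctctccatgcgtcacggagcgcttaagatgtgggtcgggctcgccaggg
Klf4 promoter, chr4:55532476-55532725, reverse strand: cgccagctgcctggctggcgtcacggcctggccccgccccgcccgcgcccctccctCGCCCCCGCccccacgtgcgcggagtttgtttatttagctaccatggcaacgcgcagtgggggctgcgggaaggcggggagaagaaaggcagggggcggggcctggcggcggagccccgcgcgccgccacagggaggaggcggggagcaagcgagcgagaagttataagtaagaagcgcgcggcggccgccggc
Klf2 promoter, chr8:72318812-72319061, forward strand: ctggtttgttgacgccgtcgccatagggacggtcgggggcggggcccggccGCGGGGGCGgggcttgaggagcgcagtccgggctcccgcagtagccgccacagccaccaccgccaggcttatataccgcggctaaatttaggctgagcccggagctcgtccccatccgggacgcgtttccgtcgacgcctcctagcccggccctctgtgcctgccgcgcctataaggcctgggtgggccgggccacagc
Fosl2 promoter, chr5:32136222-32136471, forward strand: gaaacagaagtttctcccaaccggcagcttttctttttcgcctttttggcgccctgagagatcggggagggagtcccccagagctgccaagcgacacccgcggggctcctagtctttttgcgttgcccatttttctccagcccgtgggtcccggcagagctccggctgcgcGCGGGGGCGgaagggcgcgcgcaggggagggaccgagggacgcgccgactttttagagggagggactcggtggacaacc

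Some immune genes rose, at low levels. Of 6 tested interferon and antigen presentation genes 3 rose, namely the class I genes *B2m* (2.72 ± 0.13 on the log2 scale), *H2-D1* (2.84) and *H2-K1* (2.22), and 1 fell. These 3 class I genes were the ones tested only through the homozygous libraries. Of the other 3 genes none rose, and their median log2 fold change was -0.29. *B2m*, the shared light chain of class I molecules, was read at 2.67, 2.53 and 2.61 CPM in heterozygous lenses and at 13.5, 19.5 and 18.3 CPM in homozygous lenses. *Rsad2*, an interferon-induced antiviral enzyme, went the other way, from 3.05, 4.27 and 3.55 CPM to 1.14, 0.824 and 0.801 CPM. Of 10 tested cytokine and chemokine genes 4 rose (1 of the 6 that did not need the homozygous libraries), led by the chemokines *Cxcl14* (5.81) and *Ccl2* (4.54). Of 5 complement genes *Serping1* rose (1.14), and none of the 4 that did not need the homozygous libraries. The acute-phase protease inhibitor gene *Serpina3n* was read at 3.61, 1.19 and 1.76 CPM in heterozygous lenses and at 70.9, 114 and 97.1 CPM in homozygous lenses. *Gpnmb*, a lysosomal glycoprotein of phagocytic and pigmented cells, was read at 1.08, 0.474 and 0.288 CPM against 42.3, 78 and 97.3 CPM. The homozygous libraries lay far above the others for both genes. The protein cross-linking enzyme gene *Tgm2* (6.42) and *Bpifb6* (5.86) were also among the 12 largest rises of named genes with a mean of at least 5 CPM in homozygous lenses.

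Macrophage markers were also higher, without a test. The summed level of 16 such markers was 2.94 to 3.37 CPM in heterozygous lenses and 15.2 to 27.6 CPM in homozygous lenses, and all 16 were above in every homozygous library. None of them reached the abundance limit, and 9, among them *Ptprc* and *Adgre1*, had homozygous means under 1 CPM. The sum of 15 markers of other leukocytes was 1.79 to 1.87 CPM in heterozygous lenses and 1.64 to 1.95 CPM in homozygous lenses. Most of it was *Nkg7* (means of 1.67 and 1.56 CPM). Without *Nkg7*, a choice made after seeing the data, the sum was 0.135 to 0.182 CPM against 0.238 to 0.339 CPM. The part of macrophages in the immune result was not tested.

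Some growth factor and guidance genes rose. Of 23 tested growth factor genes 8 rose and none fell at 2-fold, 4 were lower at the adjusted p alone, and of the 18 that reached the limit without the homozygous libraries 3 rose. *Igfbp2*, which encodes a binding protein for insulin-like growth factors, was read at 9.22, 8.96 and 7.02 CPM in heterozygous lenses and at 126, 102 and 86.5 CPM in homozygous lenses (3.64 ± 0.15 on the log2 scale). *Igfbp3* (3.52), the VEGF receptor *Flt1* (2.89) and *Pdgfb* (2.72) rose, whereas *Igfbp5* and *Igfbp7* had log2 fold changes of -0.61 and -0.32. Of 33 axon guidance genes 5 rose (2 of the 27 that did not need the homozygous libraries), led by *Nrp2* (4.05) and the netrin receptor *Dcc* (3.03). Of 25 FGF and ERK pathway genes 3 rose, or 12% against 3.67% of all tested genes, including the ERK-responsive *Etv4* (3.03) and *Dusp6* (1.99). Of 26 Wnt and Notch genes the Notch target *Heyl* (2.84) and the ligand *Jag2* (1.31) rose, or 7.69%. At the adjusted p alone 12 were higher and 7 lower in the first list, and 9 and 9 in the second. Without the members tested only through the homozygous libraries, none of 22 and none of 18 genes rose. The summed level of 15 endothelial markers was 27.9 to 36.6 CPM in heterozygous lenses and 70 to 79 CPM in homozygous lenses, with 14 of the 15 above in every homozygous library, and the part of endothelial cells in the result was not tested.

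Genes of glycolysis and of the response to low oxygen were mostly higher. Of 36 tested glycolysis and hypoxia genes 7 rose and 1 fell, and at the adjusted p alone 24 were higher and 5 lower. Of the 32 that reached the limit without the homozygous libraries 3 rose, 20 were higher and 5 lower at the adjusted p alone, and the median log2 fold change was 0.45. *Car9*, a carbonic anhydrase induced by low oxygen, was read at 1.63, 0.936 and 0.519 CPM in heterozygous lenses and at 6.56, 12 and 8.34 CPM in homozygous lenses. *Bnip3*, a mitophagy receptor, was read at 28.9, 23.7 and 22.6 CPM against 52.7, 72.6 and 77.1 CPM. Neither gene overlapped between genotypes. *Pfkp* (1.98), *Epas1* (2.28), *Pgk1* (1.07), *Pdk1* (1.04) and *Eno2* (1.04) rose and the muscle-type mutase *Pgam2* fell by 1.19 on the log2 scale. *Hif1a*, *Hk2* and *Ndrg1* had log2 fold changes of -0.51, -0.24 and -0.78.

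Each list of calcium genes held 1 to 3 called genes. The shares that rose were 12.5% of pumps and exchangers, 12% of entry and release channels, 16.7% of S100 and annexin genes and 10% of calpains. None of the calcium-binding genes rose, and the share over all tested genes was 3.67%. Over members that reached the limit without the homozygous libraries, the 4 shares were 12.5, 4.55, 18.2 and 10%, against 1.18%. For entry and release channels that was 1 of 22 genes. All of these shares rest on few genes. Of 8 tested calcium pumps and exchangers the sodium-calcium exchanger *Slc8a1* rose, from 20.8, 22.9 and 22.1 CPM to 47.3, 56.8 and 53.9 CPM (1.26 ± 0.08 on the log2 scale). Of 25 entry and release channels *Trpc4* (3.10), the mechanosensitive channel *Piezo2* (2.44) and the inositol trisphosphate receptor *Itpr3* (1.20) rose. Of 26 calcium-binding genes only *Vsnl1* was called, and it fell by 1.21 on the log2 scale. *S100a4* and *S100a6* rose by 1.07 each among 12 S100 and annexin genes, and of 10 calpain genes *Capn6* rose (1.53) while the lens calpain *Capn3* had a log2 fold change of -0.50. Of 11 potassium channels *Kcnc1* rose (1.18), or 9.09%, and none of the 10 that did not need the homozygous libraries. Of 6 aquaporin and connexin genes the water channels *Aqp1* (1.47) and *Aqp5* (1.31) rose.

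**Figure D3:**
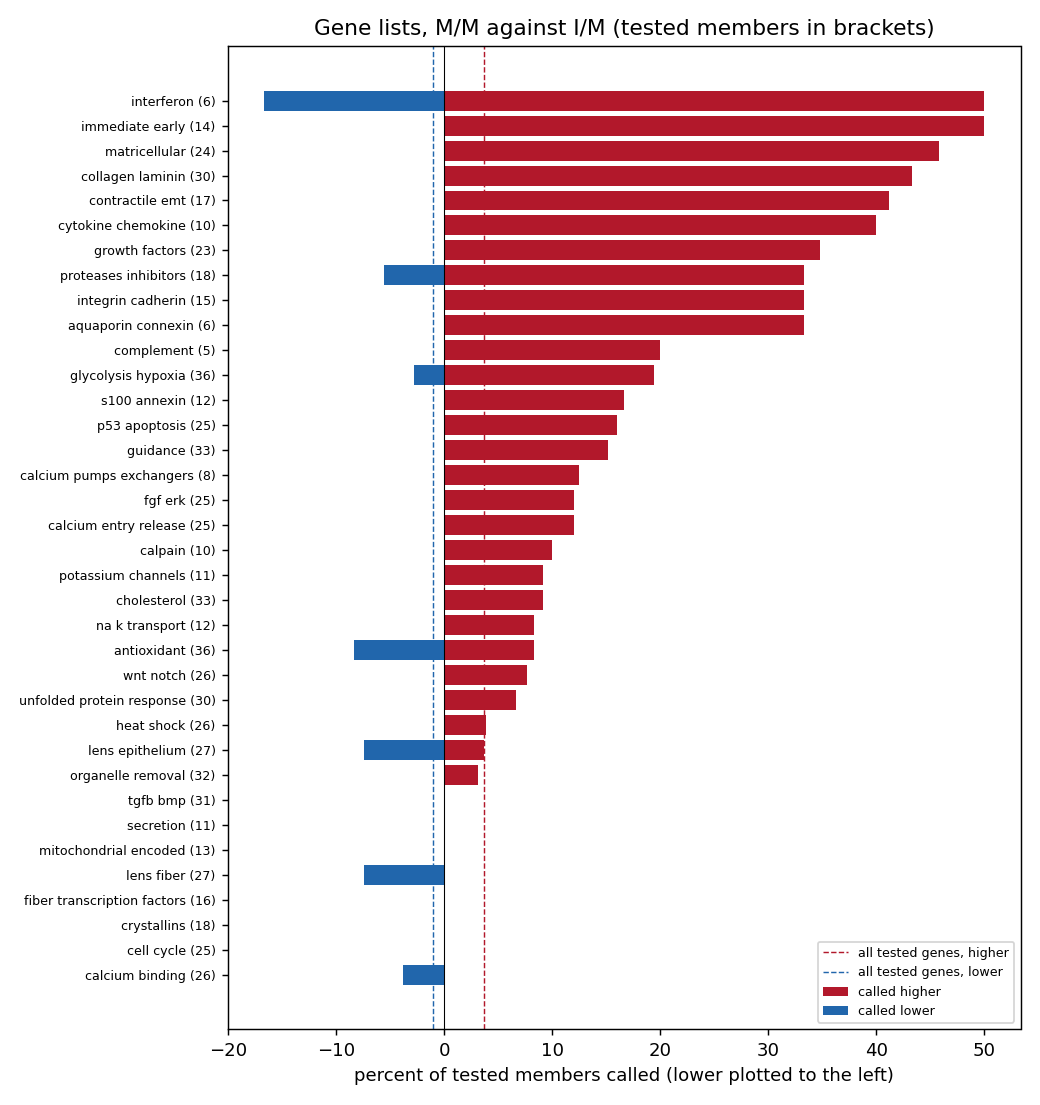
Percent of the tested members of each of 36 gene lists called higher (red, to the right) or lower (blue, plotted to the left) in *Trpm3*-M/M against *Trpm3*-I/M lenses, with the number tested in brackets. Dashed lines mark all tested genes at 3.67% higher and 1.02% lower, and the lists of immediate-early, matricellular and collagen and laminin genes lie far to the right of the first. Members tested only through the homozygous libraries are included.

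Fiber cell genes were lower. The crystallins, the structural proteins of the fiber, took 58.2, 57.4 and 57.1% of counted reads in heterozygous lenses and 51.3, 50.9 and 49.4% in *Trpm3*-M/M lenses. The homozygous libraries all lay below, by 7.03 percentage points on average, and the exact two-sided permutation test gave p = 0.1, the smallest that 3 against 3 libraries allow. The wild-type mean was 62.1 ± 1.56% (SD, n = 3). Of 18 tested crystallin genes none was called at 2-fold, but 15 were lower and 1 higher at the adjusted p, with a median log2 fold change of -0.60. *Cryaa*, *Cryab* and *Cryzl1* had log2 fold changes of -0.22, -0.09 and -0.03 under TMM and of 0.09, 0.22 and 0.28 when scaled by library size alone, so their direction depends on the scaling. *Crygn* had the most negative value, -0.97 ± 0.07.

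Of 27 tested fiber genes outside the crystallins 2 fell and 17 were lower at the adjusted p (median log2 fold change -0.39). *Bfsp1*, which encodes the beaded filament protein filensin, was read at 8935, 9774 and 10426 CPM in heterozygous lenses and at 5837, 4348 and 4263 CPM in homozygous lenses (-1.01 ± 0.11, edgeR adjusted p = 5.97e-06). *Caprin2*, an RNA-binding protein of fiber cells, was read at 1474, 1747 and 1872 CPM against 911, 642 and 688 CPM (-1.18 ± 0.11). Both genes fell without overlap between the genotypes. The epithelial transcription factor *Foxe3* fell from 54.5, 43.7 and 41.7 CPM to 18.3, 21.2 and 17.9 CPM, and *Sox2* fell by 1.10 on the log2 scale. Of 27 epithelial genes, these 2 fell and *Aqp5* rose. At the adjusted p alone 15 of the 27 were lower and 7 higher (median log2 fold change -0.22). Of 16 fiber transcription factors none was called, and *Prox1* had a log2 fold change of -0.03 ± 0.05.

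The 12 largest falls among genes with a mean of at least 5 CPM in heterozygous lenses, predicted genes aside, lay outside the gene lists except for *Gstm2*, an antioxidant gene. *Emilin3*, an extracellular glycoprotein, was read at 24.8, 21.8 and 20.4 CPM in heterozygous lenses and at 3.91, 4.76 and 4.06 CPM in homozygous lenses (-2.39 ± 0.08 on the log2 scale). *Klhl22*, an adaptor of a ubiquitin ligase, was read at 114, 136 and 141 CPM against 34.2, 29 and 23.7 CPM (-2.17 ± 0.12). Every homozygous library was below every heterozygous one for both genes. *Tmem132b* (-2.30), *Scube3* (-2.15), *Lcp2* (-2.06), *Cckbr* (-2.03) and the glutathione transferase *Gstm2* (-2.02) fell by 4-fold or more, and *Serpind1* (-1.82), the exonuclease *Trex1* (-1.80), *Nat8l* (-1.70), *Zfyve28* (-1.65) and *Gask1b* (-1.53) by less. *Hmox1*, heme oxygenase, fell from 1261, 1325 and 1416 CPM to 723, 622 and 416 CPM. Of 36 antioxidant genes 3 rose and 3 fell, or 8.33% each way. Of the 34 that did not need the homozygous libraries 1 rose and 3 fell.

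The remaining lists held 0 to 4 called genes each. Of 25 p53 and apoptosis genes 4 rose, or 16% against 3.67% of all tested genes, but none of the 19 that reached the limit without the homozygous libraries was called in edgeR's test (8 higher and 6 lower at the adjusted p alone), with the cell cycle inhibitor *Cdkn1a* at 2.90 on the log2 scale. Of 30 unfolded protein response genes *Ddit3* (1.56) and *Asns* (1.29) rose, or 6.67%. Of 26 heat shock genes *Hspa1b* rose (1.38), or 3.85%, near the share over all tested genes. Among members that reached the limit without the homozygous libraries, 1 of 27 and none of 25 rose. Of 33 cholesterol and lipid genes *Scd1* (2.84), *Apoe* (1.95) and *Abca1* (1.24) rose, or 9.09%. Of the 30 that did not need the homozygous libraries 2 rose. Among 32 organelle removal genes only *Bnip3* was called, or 3.12%. None of 25 cell cycle, 13 mitochondrially encoded or 11 secretion genes was called, although the cyclin *Ccnd2* had a log2 fold change of 0.77 ± 0.06. For lists with fewer than 2 calls, the most abundant members named had log2 fold changes from -0.75 (*Plaat3*) to 0.77 (*Ccnd2*), with *Ctsd* at 0.52. Other log2 fold changes among them were -0.18 for the reticulum protein *Rcn1*, -0.03 for the chaperone *Clu*, 0.10 for *Cd59a*, -0.29 for *Hsp90ab1* and -0.08 for the cell cycle inhibitor *Cdkn1c*. They were 0.09 for *mt-Co1*, 0.02 for *mt-Cytb*, -0.18 for the prohormone-processing *Cpe* and -0.05 for *Abcc8*.

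The wild-type libraries allow the second allele to be set against the first. For each gene the change from *Trpm3*-I/M to *Trpm3*-M/M was compared with the change from wild-type to *Trpm3*-I/M, both on the log2 scale, within 1 edgeR model. At the first step 232 genes rose (2.58%) and 67 fell (0.746%). The second step exceeded the first in 1034 genes (11.5%) and fell below it in 1158 (12.9%) at an adjusted p of at most 0.05. Of these calls 47.2% were upward, against 69.2% with scaling by library size alone, where 1352 genes were above and 601 below. On the same tested genes, 677 and 731 genes were past the limit without the second heterozygous library and 700 and 750 without the third, so the counts depend on those libraries. The 2 steps share the heterozygous libraries, so a low or high value there moves them in opposite directions. The tested genes include 771 that reached the abundance limit only with the homozygous libraries.

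Some genes did not rise past the limits with 1 mutant allele and rose with 2. *Fn1* had a wild-type mean of 3.01 ± 0.506 CPM (SD, n = 3), a *Trpm3*-I/M mean of 2.66 ± 0.172 CPM and a *Trpm3*-M/M mean of 61.2 ± 15 CPM, a step difference of 4.71 ± 0.36 on the log2 scale. *Vcan*, encoding the proteoglycan versican, had means of 0.242, 0.23 and 11.1 CPM in the same order. *Cxcl14* and *Col1a1* were under 1 CPM on average in wild-type and heterozygous lenses. Their first-step log2 fold changes were 0.53 (edgeR adjusted p = 0.444) and 1.40 (edgeR adjusted p = 0.29). *Egr1* and the lysosomal protease *Ctsc* first fell, to means of 1.45 and 2.2 CPM from wild-type means of 4.28 and 4.58 CPM, and then rose to 19.6 and 33 CPM. Every gene named in this paragraph reached the abundance limit only with the homozygous libraries. A high level with 2 mutant alleles was therefore a condition of being tested.

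Other genes made the larger log2 change with the first mutant allele. *Thbd*, the thrombin receptor thrombomodulin, had means of 0.561, 33.2 and 35.8 CPM in wild-type, heterozygous and homozygous lenses, and the last 2 overlapped (log2 fold change 0.10 ± 0.09, edgeR adjusted p = 0.359). *Col8a2*, a short-chain collagen, had means of 1.33, 32.6 and 18.4 CPM, and the tight junction gene *Cldn10* 0.215, 7.66 and 4.37 CPM. Both were lower at the second step, by log2 fold changes of -0.83 and -0.81 (edgeR adjusted p = 0.000155 and 4.87e-06). *Masp1* and *Vwc2* were read with at most 4 counts in any wild-type library, so only their mutant levels are given, at 12.5, 14.6 and 13.8 CPM against 17.5, 17.3 and 17 CPM for *Masp1*. *Capn6* and *Lama4* rose at both steps, the second by 1.53 and 1.60 on the log2 scale. Their wild-type counts were 0, 7 and 8 and 2, 9 and 8, so the log2 size of their first step rests on few reads. In CPM the means were 0.102, 14.5 and 41.8 for *Capn6* and 0.129, 9.24 and 28.1 for *Lama4*, from wild-type to homozygous lenses.

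**Figure D4:**
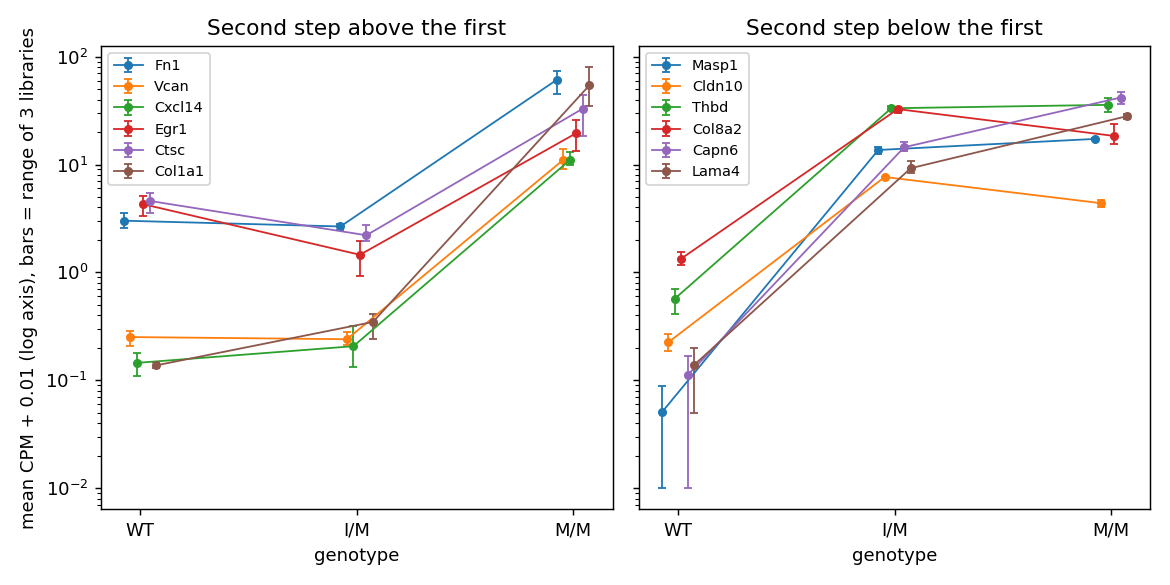
Mean CPM plus 0.01 on a log axis in wild-type, heterozygous and homozygous lenses for 6 genes whose second step exceeded the first (left) and 6 whose second step fell below it (right), with bars for the range of 3 libraries. With 1 mutant allele none of the genes on the left is called higher, and *Egr1* and *Ctsc* dip. All genes on the left climb with 2, and all reached the abundance limit only with the homozygous libraries. Those on the right make the larger log2 change with the first allele, and *Col8a2* and *Cldn10* are lower with 2 than with 1.

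**Figure D5:**
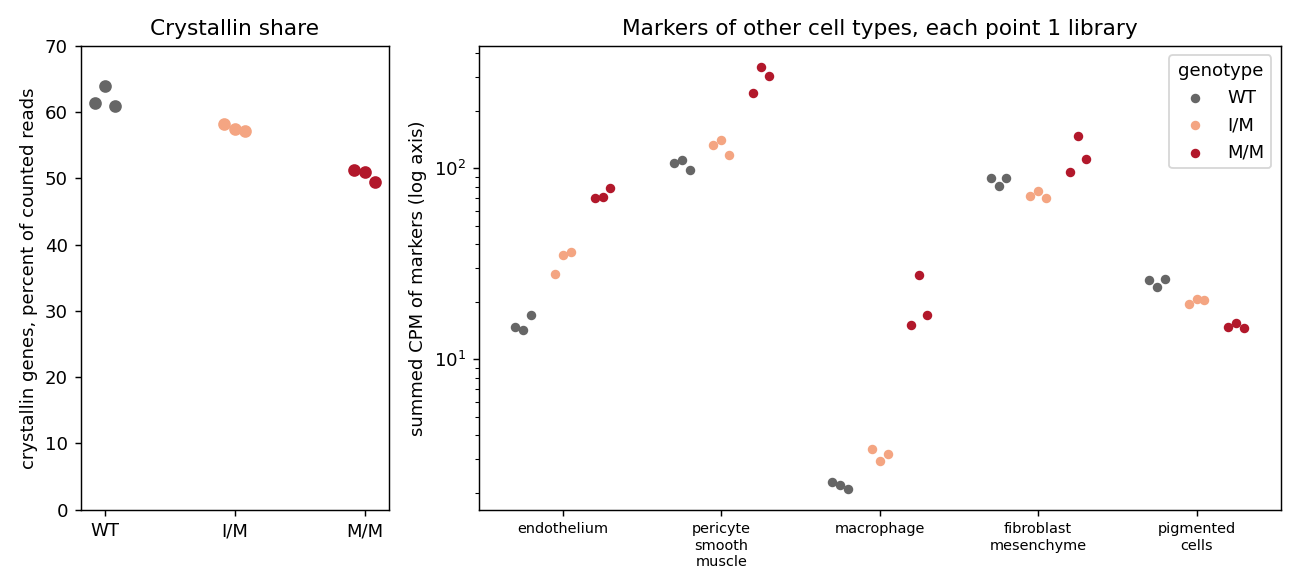
Left, percent of counted reads on crystallin genes, and right, summed CPM of marker genes of other cell types on a log axis, in wild-type, heterozygous and homozygous lenses, where each point is a library. Crystallin share is lowest in *Trpm3*-M/M lenses, whereas the endothelial, pericyte and macrophage sums are highest there and the pigmented cell sum is lowest. The fibroblast sum is highest there only with *Col1a1* included.

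Retinal markers were examined because the retina lies close to the lens. The summed level of 15 photoreceptor markers was 2.28 to 2.66 CPM in heterozygous lenses and 17.5 to 25.1 CPM in homozygous lenses, and most of the difference was *Arr3*, the cone arrestin gene, without which the sum was 2.26 to 2.55 CPM against 3.18 to 6.74 CPM. *Arr3* was read at 0.108, 0.0243 and 0.0721 CPM against 10.7, 18.8 and 19.9 CPM. The rod genes *Sag* and *Gnat1* had means of 0.131 and 0.0526 CPM in heterozygous lenses and of 0.432 and 0.129 CPM in homozygous lenses. Of the 15 markers 9 were above and 1 below in every homozygous library. The sum of 16 inner retina markers was 12.5 to 14.4 CPM against 30.7 to 31 CPM. Without *Glul* (log2 fold change 1.26) it was 4.06 to 5.12 CPM against 9.01 to 9.98 CPM. Of these 16 markers 9 were above and 1 below in every homozygous library. Markers of 12 genes of pigmented cells summed to 19.5 to 20.7 CPM in heterozygous lenses and 14.6 to 15.5 CPM in homozygous lenses. The sum of 10 ciliary epithelium markers was 11.5 to 14.8 CPM against 37.1 to 41.7 CPM. Without *Aqp1* it was 2.04 to 2.98 CPM against 8.99 to 14.9 CPM. The part of such cells in the result was not tested.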

How the data were processed

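Poly-A RNA from pooled mouse lenses was sequenced by the authors, who aligned and quantified the reads with DRAGEN against mm10. The deposited values are estimated counts per gene, of which 88.4% were whole. A second deposited table holding the authors' fold changes and p-values was not used. Of 55774 rows, repeats of a gene identifier were dropped, leaving 55487 genes, and counts were rounded. Every column was matched to a sample by name. Those of the third homozygous and the second *Trpm3*-KO library end in an extra letter c, whose meaning is not given in the sources used here, and were matched by the rest of the name.

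The genes tested had at least 5 CPM, before TMM factors, in at least 3 of all 12 libraries. They were scaled by TMM and fitted by genotype with edgeR 4.0.16 (quasi-likelihood test, Benjamini-Hochberg adjustment) under R 4.3.3. The SE of a log2 fold change was its size over the square root of F. A gene was called at a fold change of at least 2 and an adjusted p of at most 0.05, and a step difference at that adjusted p. Library shares were compared by an exact permutation test. The model fit was tested on simulated data. limma 3.58.1 and DESeq2 1.42.0 were installed, and DESeq2 served as an alternative, beside other scalings and filters, a replicate block and leaving out each library. Where a listed symbol had more than 1 identifier (5 symbols), the most abundant was used.

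The comparison, the 36 gene lists and the 15 marker lists were chosen with earlier results of these data known. The genes named are *Trpm3*, the 12 largest rises and 12 largest falls with at least 5 CPM in the higher genotype, up to 4 called genes of each list (or its 2 most abundant where under 2 were called), the 8 largest step differences each way and the crystallins. Further list members are named with their values as examples chosen after those were seen. Some named genes are not reported here. Gene coordinates are from GENCODE (GRCm38).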

Additional observations from a re-analysis of the deposited data

Results flagged for a closer look

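In 11 genes described here the first and the second mutant allele moved the level in opposite directions, each step past both limits, with the difference between the steps itself past the edgeR adjusted p limit. Values are mean CPM in wild-type, heterozygous and homozygous lenses in turn, and then the step difference on the log2 scale. Since both steps share the heterozygous libraries, a departure of those libraries alone would give the same pattern.

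In 8 of these genes the level fell with the first allele and rose with the second. *Egr1* went from 4.28 to 1.45 to 19.6 CPM, with a step difference of 5.36 ± 0.64. *Ctsc* went from 4.58 to 2.2 to 33 CPM (4.97 ± 0.56), and the matricellular *Sparcl1* from 6.05 to 2.54 to 17 CPM (4.00 ± 0.36). *Ildr2* went from 2.98 to 1.29 to 5.2 CPM (3.24) and the adaptor *Grb10* from 10.4 to 4.73 to 14 CPM (2.73). *Rasgrp1* and the nicotinic receptor subunit *Chrna4* both had a step difference of 2.49, and the thrombin receptor *F2r* went from 41.6 to 15.6 to 32.9 CPM (2.48). *Egr1*, *Ctsc*, *Sparcl1* and *Ildr2* reached the abundance limit only with the homozygous libraries.

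In the other 3 genes the level rose with the first allele and fell with the second. The secreted *Clec11a* went from 0.751 to 6.72 to 2.88 CPM (-4.39 ± 0.35), the prostaglandin receptor *Ptger1* from 2.73 to 12.2 to 5.59 CPM (-3.30 ± 0.25) and *Megf6* from 18.6 to 48.9 to 24.4 CPM (-2.40 ± 0.14).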

How the results depend on the processing

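The counts of 330 genes higher and 92 lower stayed within 1.5 times under TMM without the crystallins, upper-quartile scaling, DESeq2's size factors, DESeq2's Wald test, the compared genotypes alone and the replicate block (329 and 93; step differences 942 and 1034). Same-numbered libraries did not deviate together (correlations of -0.15, -0.01 and -0.07), so the numbers do not pair them. Scaling by library size alone moved the median gene by 0.308 on the log2 scale, giving 533 higher and 31 lower, so 94.5% rather than 78.2% of calls were higher, and 601 step differences below. With no abundance filter the counts were 1873 and 462 and with at least 1 CPM 821 and 188, and without the filter 1938 step differences were below. With no fold limit they were 2300 and 2308. Testing against 2-fold (glmTreat) left 30 lower. Leaving out a library gave 106 to 335 genes higher, 71 to 116 lower, 677 to 1039 step differences above and 729 to 1157 below. Without M/M replicate 1, 2 or 3 the higher counts were 131, 106 and 119, because fewer genes then reached the filter, and 346, 320 and 325 with the tested genes kept. With the tested genes kept, step differences numbered 677 above and 731 below without I/M replicate 2, and 750 below without I/M replicate 3. The 10 most abundant genes differed by -5.56 percentage points of reads in place of -7.03. The fibroblast marker sum differed by 46.3 CPM with and -7.67 CPM without *Col1a1*, an alternative chosen after seeing the data.

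No called gene named here changed direction. Of genes near 0, these log2 fold changes changed sign under library size alone: *Rcn1* 0.13, *Cryaa* 0.09, *Prox1* 0.28, *Cryab* 0.22, *Hsp90ab1* 0.02, *Cdkn1c* 0.23, *Clu* 0.28, *Cpe* 0.13, *Abcc8* 0.26 and *Cryzl1* 0.28. *mt-Cytb* was -0.01 with no filter. Leaving out a library gave *Clu* values of -0.10 to 0.06, *Cd59a* of -0.11 to 0.22, *mt-Co1* of -0.05 to 0.20, *mt-Cytb* of -0.18 to 0.15, *Cryzl1* of -0.07 to 0.05 and *Thbd* of 0.01 to 0.23. With the tested genes kept, they were 0.01 and 0.04 for *Clu* without I/M or M/M replicate 1, -0.11 for *Cd59a* without I/M replicate 3, -0.07 for *mt-Co1* without M/M replicate 3, -0.02 and -0.20 for *mt-Cytb* without I/M replicate 1 or M/M replicate 3, -0.01 for *Thbd* without M/M replicate 1 and 0.04 for *Cryzl1* without M/M replicate 3. The causes were not tested. Genes under the 5 CPM limit, among them all 16 macrophage markers, were not tested at this depth.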
